A study of Homo sapiens with 30 samples.

Results

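The integrated stress response and amino acid supply genes described here are 39 genes, listed by symbol. The list was made with earlier results of these data known. All 39 were among the 20114 genes of the expression table, and all passed the rule that a gene reach 1 CPM (the CPM scale sets each gene's reads against the library's total) in at least 2 libraries, as did 12743 genes in total. Each of the 39 was at or above 1 CPM in all 30 libraries, the lowest value being 4.87 CPM for CTH, so no member was lost to low expression. The set holds 7 transcription factors, 5 feedback and effector genes, 6 enzymes of serine, glycine and one-carbon synthesis, 4 enzymes of asparagine, cysteine and phosphoenolpyruvate synthesis, 5 amino acid transporters, and 11 aminoacyl-tRNA synthetases with the tRNA export receptor XPOT.

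Poly-A RNA was sequenced from SUM190, an established ERBB2-amplified line from an inflammatory breast cancer, along with sublines that resist doxorubicin or paclitaxel. There were 15 groups of 2 libraries. Treatment began 24 h after seeding and lasted 72 h in every group, with DMSO as the vehicle. Parental cells (Par) received DMSO, paclitaxel (PTX, a drug that stabilises microtubules) at 2.5 nM (Low) or 10 nM (High), doxorubicin (Dox, a topoisomerase II poison) at 65 nM (Low) or 1 µM (High), the JAK1/JAK2 kinase inhibitor ruxolitinib (RUX) at 15 µM, or both ruxolitinib and 2.5 nM paclitaxel. Doxorubicin-resistant cells (DR) received DMSO or doxorubicin at 350 nM (Low) or 1 µM (High). Paclitaxel-resistant cells (PR) received DMSO, paclitaxel at 6.5 nM (Low) or 10 nM (High), ruxolitinib at 15 µM, or 6.5 nM paclitaxel together with ruxolitinib. For both combinations the labels give ruxolitinib as 15 nM, and for the single agent as 15 µM, and doses are printed here as labelled. How the resistant lines were derived, and whether each is 1 clone, is not given in the sources used here.

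In the integrated stress response, kinases that sense amino acid shortage, unfolded protein, haem shortage or double-stranded RNA phosphorylate the translation factor eIF2α. General translation then falls while translation of the ATF4 mRNA rises, and ATF4 protein, paired with C/EBP proteins, switches on genes that make, import and load amino acids. ATF4 also induces DDIT3 and, through it, PPP1R15A, which helps to remove the phosphate from eIF2α. RNA levels do not report eIF2α phosphorylation or ATF4 translation.

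The DNA element that ATF4 and its C/EBP partners bind is the C/EBP-ATF response element, and the promoters below show its core, TGATGNAA, in members of different roles. Promoter windows from RefSeq (GRCh38.p14, 250 bases before to 50 bases after each listed start site) matched 33 of the 39 members, in 54 windows. The core, searched on both strands, was in the windows of 14 of these 33 members (42.4%) and of 3.60% of the 15843 protein-coding genes with windows. Counted by window, 14 of 54 (25.9%) held it, against 2.69% of all protein-coding windows of the same 300 bases. The capitals mark the core, read in the direction of the gene, so TTGCATCA and TTTCATCA are the core on the opposite strand.
CEBPG: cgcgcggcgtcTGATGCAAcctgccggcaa
JDP2: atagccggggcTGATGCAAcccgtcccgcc
CHAC1: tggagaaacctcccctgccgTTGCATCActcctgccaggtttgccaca
ASNS: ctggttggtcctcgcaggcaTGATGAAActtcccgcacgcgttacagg
SLC1A4: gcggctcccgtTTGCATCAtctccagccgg
AARS: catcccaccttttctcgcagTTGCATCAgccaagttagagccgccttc
GARS: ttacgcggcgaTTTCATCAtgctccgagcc
IARS: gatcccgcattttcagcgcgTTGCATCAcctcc
The CEBPG stretch is chr19:33374060-33374089 (plus strand), with the core starting 42 bases upstream of the nearest listed start site. JDP2 is chr14:75427995-75428024 (plus strand, 16 bases), CHAC1 chr15:40953242-40953289 (plus strand, 209 bases) and ASNS chr7:97872449-97872496 (minus strand, 68 bases). SLC1A4 is chr2:64989381-64989410 (plus strand, 7 bases), AARS chr16:70289666-70289713 (minus strand, 187 bases), GARS chr7:30594834-30594863 (plus strand, 33 bases) and IARS chr9:92293698-92293730 (minus strand, 13 bases). The other members whose windows held the core were SLC3A2, SLC7A1, CARS, NARS, MARS and TARS. Members with windows and no match to these letters included ATF4, DDIT3, PPP1R15A, TRIB3, PHGDH and PSAT1. A match is a description of the sequence and was not tested for binding. RefSeq windows were not used for NUPR1, PSPH, SHMT2, ALDH1L2, SLC7A11 and YARS.

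The cells carried the markers of their line: EPCAM, KRT8, KRT18, KRT19, CDH1 and ERBB2 summed to 4129 to 7927 CPM per library. Of 10 markers of immune, endothelial and stromal cells, 9 were in the table and summed to 16.0 to 44.8 CPM, most of it CD68 and COL1A1. CD3E was at 0 in 24 libraries, COL1A2 in 22, DCN in 15, LUM in 9 and PTPRC in 3. The others were at 0 in no library. PTPRC reached 5.96 CPM, VWF 7.08 CPM and PDGFRB 0.663 CPM. The libraries held 18443749 to 32669995 reads in genes, and a count of 3 reads was worth 0.0947 to 0.163 CPM, well under every member's level. The parental DMSO replicates differed more than most pairs: their difference followed transcript GC content (Spearman 0.872 across 8551 genes, which are not independent replicates), and the median member was 0.18 higher (log2) in replicate 2. This pair is the control of every parental single-agent comparison. In bulk RNA, fewer cells of a kind and less RNA per cell cannot be told apart. Separate cultures are not named in the labels for the 2 libraries of a group. The p-values therefore reflect library-to-library spread alone, and that spread may be technical. In the main fit it is pooled for each gene over all 15 groups. It thus does not follow the spread of any 1 pair, such as parental DMSO.

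All differences below are of log2(CPM + 1), given with a standard error, and adjusted p-values are limma's after Benjamini-Hochberg adjustment over 12743 genes. "Rose" and "fell" mean an adjusted p under 0.05, and each percentage beside a count is the share of all 12743 genes that passed in that direction. Group means of each member were ranked across the 15 groups. Of the 39 members, 22 had their highest group mean in parental cells with ruxolitinib and 17 their lowest in parental cells with 1 µM doxorubicin. A further 8 had their highest mean in that same doxorubicin group. The same counts were not made over all genes. Most genes changed in that doxorubicin group against DMSO (34.3% rose and 41.5% fell). Whether extremes there are particular to the set was not tested. The ratio of the highest to the lowest group mean ran from 1.34 for NARS to 30.4 for PPP1R15A, with 14.1 for DDIT4 and 10.9 for DDIT3.

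**Figure D1:**
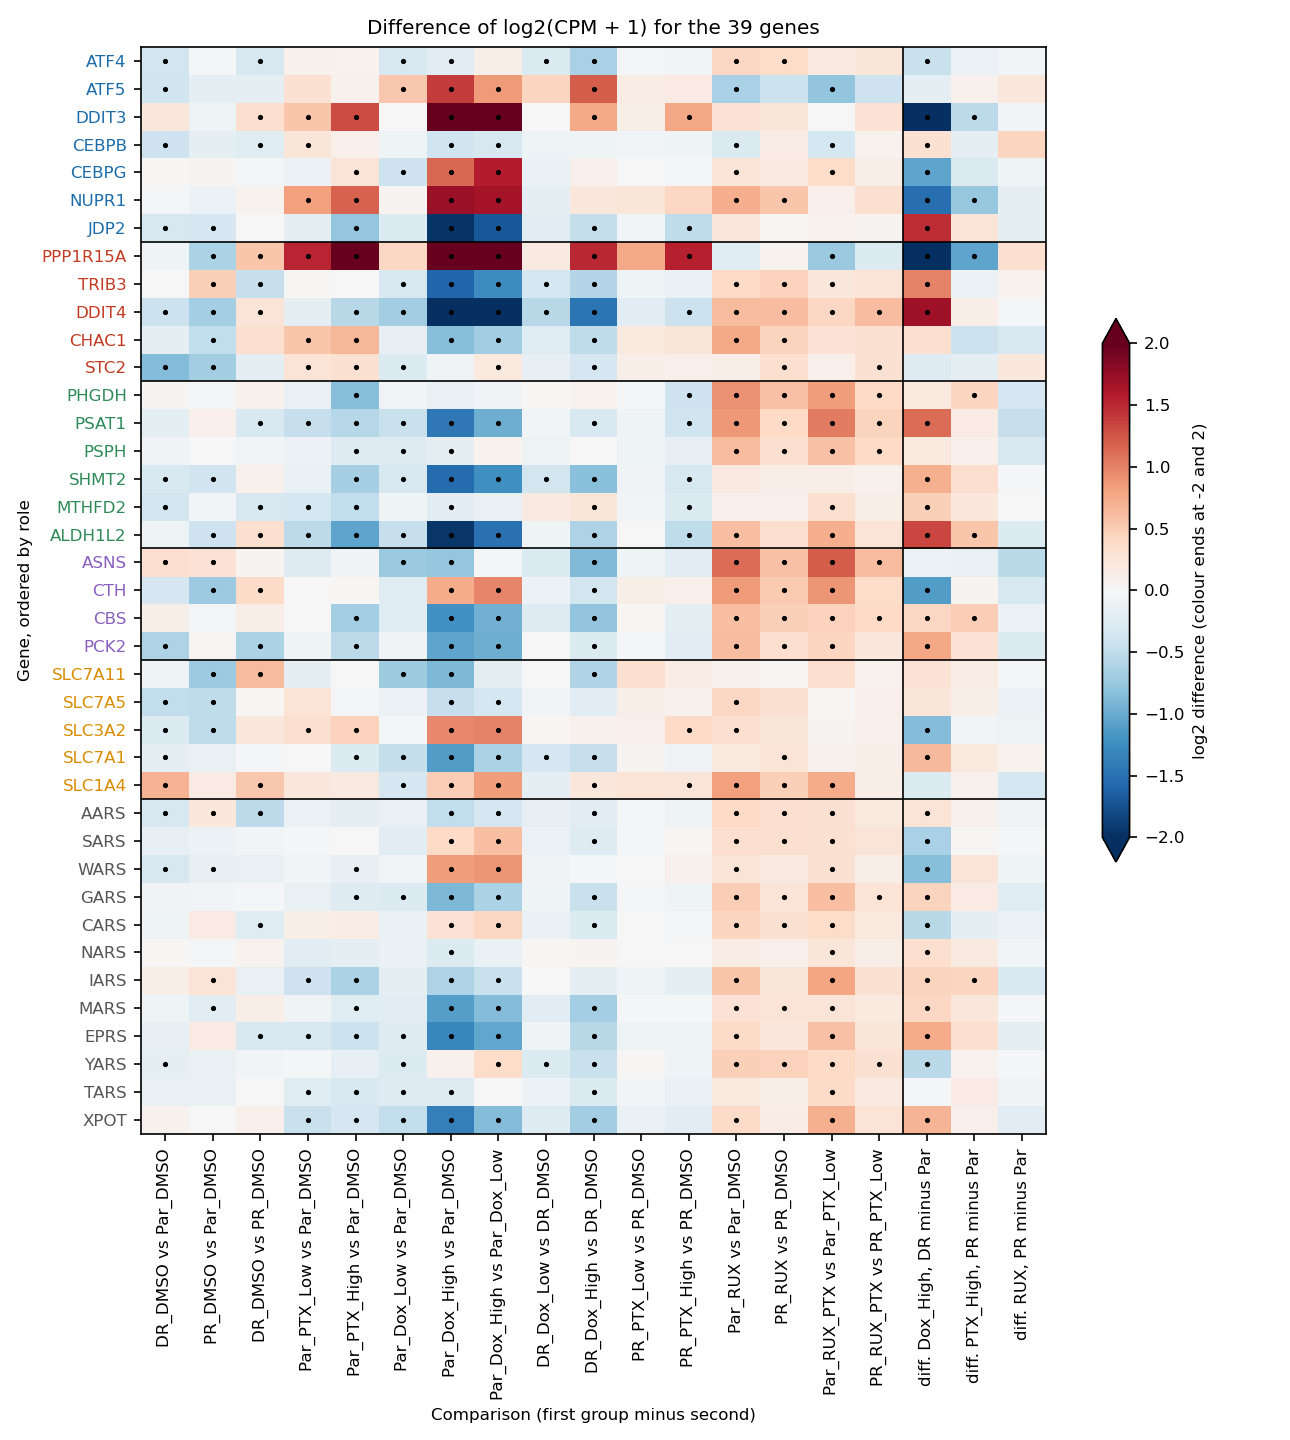
Difference of log2(CPM + 1) for the 39 genes (rows, ordered and coloured by role) in 16 comparisons of a pair of groups and 3 differences of responses (columns, first group minus second). Dots mark an adjusted p under 0.05, and colour ends at -2 and 2. The ruxolitinib columns are red in most rows, while the 1 µM doxorubicin column of parental cells is split between deep red (PPP1R15A, DDIT3) and deep blue (DDIT4, JDP2, ALDH1L2).

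Ruxolitinib raised most of the set in parental cells, from ATF4 itself to the serine enzymes, ASNS, a transporter of small neutral amino acids and most tRNA synthetases. Of 39 members 27 rose (5.51% of all genes rose) and 2 fell (7.71% of all genes fell). The median member difference was 0.39, against -0.01 over all genes tested. ASNS, which makes asparagine, showed the steepest rise: 413 and 361 CPM in the DMSO libraries and 836 and 838 CPM with ruxolitinib, a difference of 1.11 ± 0.10 (adjusted p = 3.95e-08). PHGDH, the entry enzyme of serine synthesis, went from 111 and 132 CPM to 229 and 231 CPM (0.92 ± 0.10, adjusted p = 5.28e-07). PSAT1, the next enzyme of that pathway, went from 227 and 194 CPM to 381 and 384 CPM (0.86 ± 0.10, adjusted p = 2.56e-06). For all 3 genes both ruxolitinib libraries lay above both DMSO libraries, and 35 of the 39 members did not overlap between these groups, against 47.7% of all genes tested. Summed immune, endothelial and stromal markers were 20.6 to 20.7 CPM with ruxolitinib and 24.9 to 27.1 CPM in DMSO; their part in these differences was not tested.

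By role, the 4 enzymes of asparagine, cysteine and phosphoenolpyruvate synthesis all rose, with CTH (cystathionine gamma-lyase) at 0.85, PCK2 (mitochondrial phosphoenolpyruvate carboxykinase) at 0.61 and CBS (cystathionine beta-synthase) at 0.59. Of the 6 serine, glycine and one-carbon enzymes 4 rose. PSPH, the last enzyme of serine synthesis, changed by 0.63 and the mitochondrial folate enzyme ALDH1L2 by 0.61, while SHMT2 (0.18) and MTHFD2 (0.10), which carry serine carbon through mitochondrial folate, did not pass. Of the 12 tRNA genes 10 rose, by 0.26 (WARS) to 0.55 (IARS); NARS (0.16) and TARS (0.20) did not pass. Of the 5 transporters 3 rose: SLC1A4 (0.82), the SLC7A5 chain of the large neutral amino acid carrier (0.42) and its partner SLC3A2 (0.33). SLC7A11, which imports cystine, differed by 0.09 and SLC7A1, which imports cationic amino acids, by 0.19, and neither passed.

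The regulators moved in both directions. ATF4 mRNA was at 354 and 432 CPM in DMSO and 520 and 528 CPM with ruxolitinib (0.42 ± 0.08, adjusted p = 0.00103). NUPR1, a small stress-induced chromatin protein, rose by 0.73 and CEBPG, a C/EBP partner of ATF4, by 0.26. ATF5, a close relative of ATF4, fell from 24.5 and 35.9 CPM to 18.5 and 18.7 CPM (-0.65 ± 0.13, adjusted p = 0.00161). CEBPB fell by 0.28, from 99.8 and 114 CPM to 87.7 and 86.8 CPM. For both genes replicate 2 was the higher DMSO library, and neither fall passed without it. DDIT3, which encodes the death-associated factor CHOP, was at 15.9 and 17.6 CPM against 20.9 and 20.4 CPM (0.29, adjusted p = 0.0875), and PPP1R15A differed by -0.24 (adjusted p = 0.384). Among the effectors CHAC1, which degrades glutathione, rose by 0.75, DDIT4, an inhibitor of mTORC1, by 0.63 and the pseudokinase TRIB3 by 0.39. DDIT3 and PPP1R15A, which rose with 1 µM doxorubicin and 10 nM paclitaxel, were not among the 27 that rose here. Leaving out any 1 library gave 21 to 26 calls, and a fit of only these groups gave 16.

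**Figure D2:**
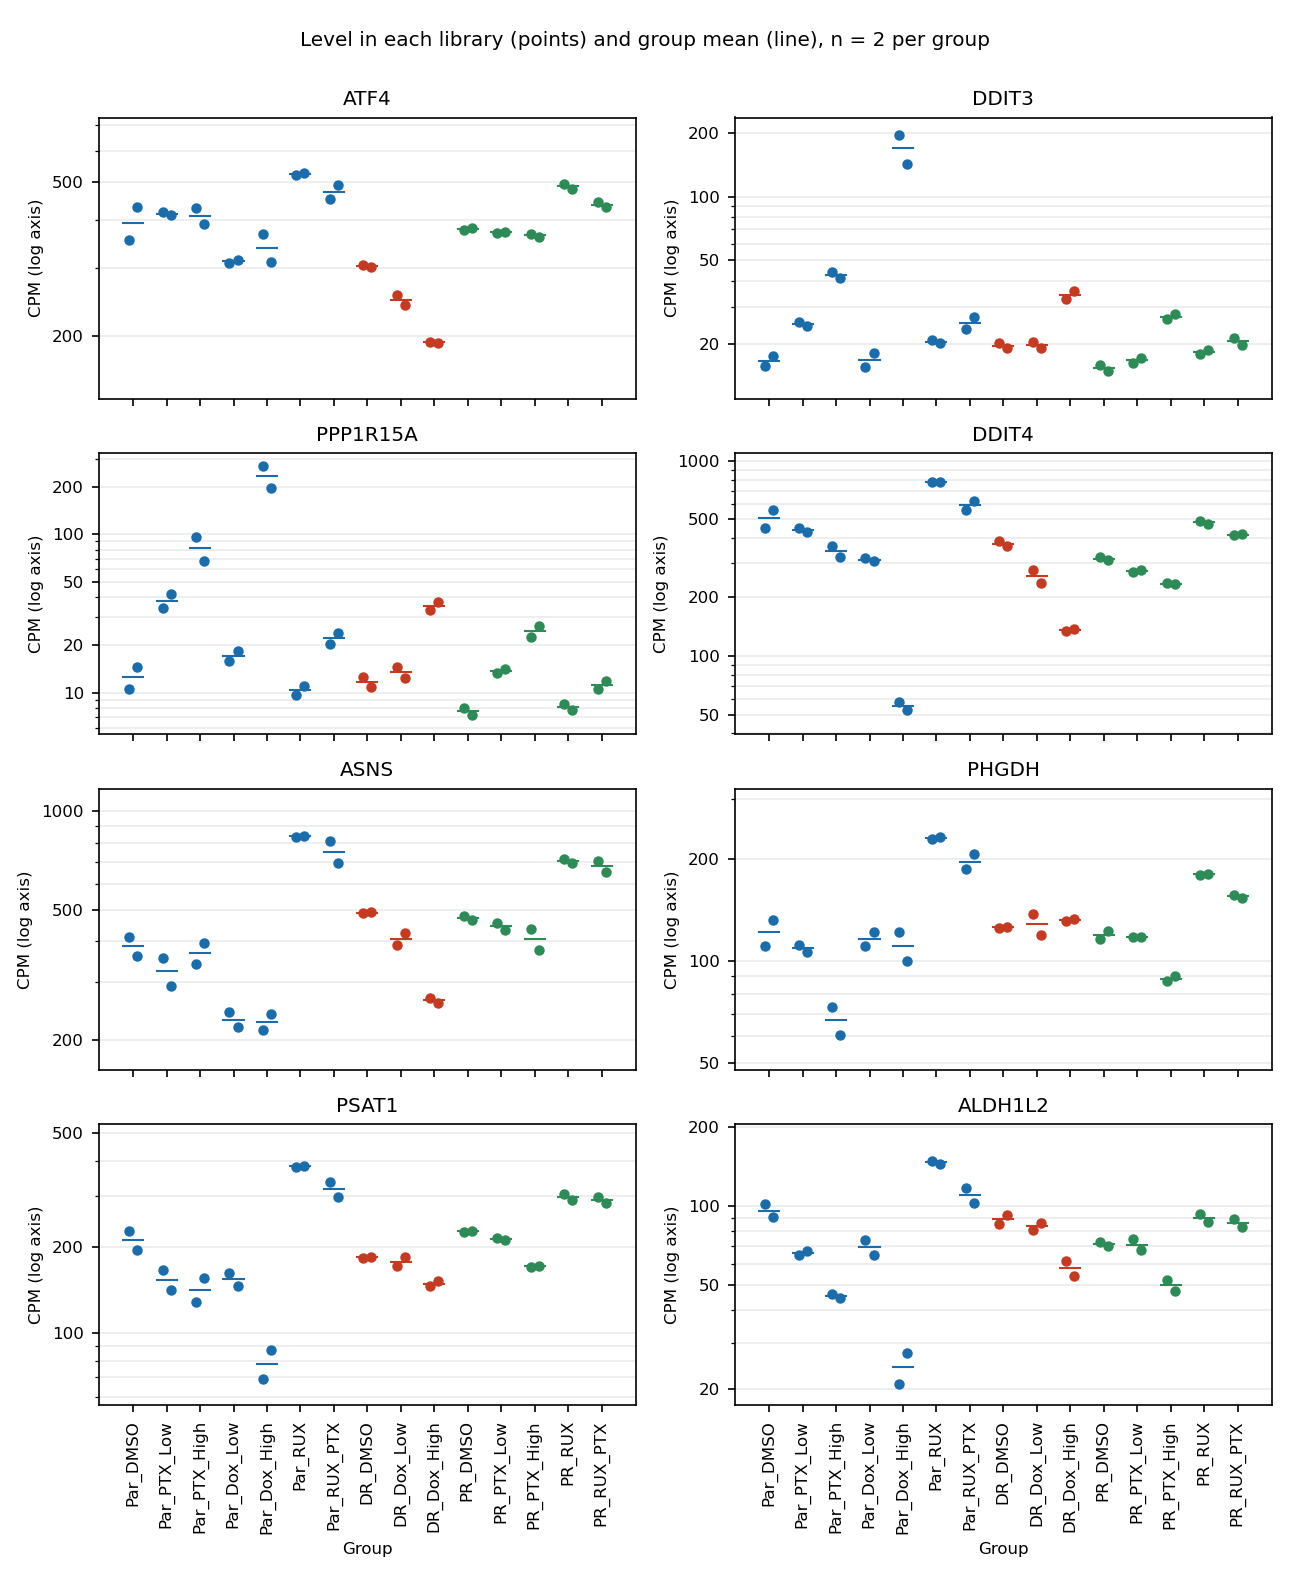
CPM on a log axis for 8 genes in each of the 15 groups (2 points per group, 1 per library; the short line is the group mean; blue parental, red doxorubicin-resistant, green paclitaxel-resistant). ASNS, PHGDH and PSAT1 are highest with ruxolitinib, PPP1R15A and DDIT3 are highest and DDIT4 lowest in parental cells with 1 µM doxorubicin, and ATF4 stays between 193 and 528 CPM.

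In paclitaxel-resistant cells 15 µM ruxolitinib raised 21 of the 39 members (2.86% of all genes rose) and lowered 0 (4.06% of all genes fell). The median member difference was 0.30, against 0.00 over all genes. DDIT4 was at 322 and 309 CPM in DMSO and 489 and 476 CPM with ruxolitinib (0.61 ± 0.09, adjusted p = 6.65e-05). PHGDH was at 116 and 122 CPM and then 179 and 180 CPM (0.59 ± 0.10, adjusted p = 0.000372). ASNS went from 477 and 464 CPM to 715 and 696 CPM (0.58 ± 0.10, adjusted p = 0.000529). Replicates of the groups did not overlap for these 3 genes, nor for 36 of the 39 members, against 62.2% of all genes tested.

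The pattern by role in these cells again had the 4 enzymes of asparagine, cysteine and phosphoenolpyruvate synthesis in full (0.33 to 0.58), with 4 of 5 effectors, 6 of 12 tRNA genes, 3 of 6 serine and one-carbon enzymes, 2 of 5 transporters and 2 of 7 transcription factors. The transcription factors were ATF4 (0.36 ± 0.08, adjusted p = 0.00749) and NUPR1 (0.55 ± 0.15, adjusted p = 0.0235). STC2, a secreted glycoprotein, rose by 0.34 and YARS by 0.46. ATF5 was at 26.4 and 25 CPM in DMSO and 19.4 and 18.5 CPM with the drug (-0.42, adjusted p = 0.0566). The count rested on all 4 libraries: without DMSO replicate 1 or 2 it was 7 and 7, and without ruxolitinib replicate 1 or 2 it was 8 and 9. Correcting each library for GC content and length gave 33 calls, and a fit of only these groups 34.

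The responses of the lines to 15 µM ruxolitinib were compared directly. No member's response differed at an adjusted p under 0.05 in limma (0.298% of all genes were called higher and 0.11% lower in paclitaxel-resistant cells), while 9 members had an unadjusted p under 0.05. A voom fit to recovered reads also called 0, and the GC and length correction called 5, all lower in paclitaxel-resistant cells. The response of ASNS was smaller there by 0.53 on the log2 scale, written as -0.53 ± 0.14 (adjusted p = 0.133), and that of CEBPB differed by 0.44 ± 0.11 (adjusted p = 0.0975). Responses were lower in paclitaxel-resistant cells for 32 of 39 members, with a median difference of -0.08 against 0.01 over all genes. A p that misses the threshold does not show equal responses.

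**Figure D3:**
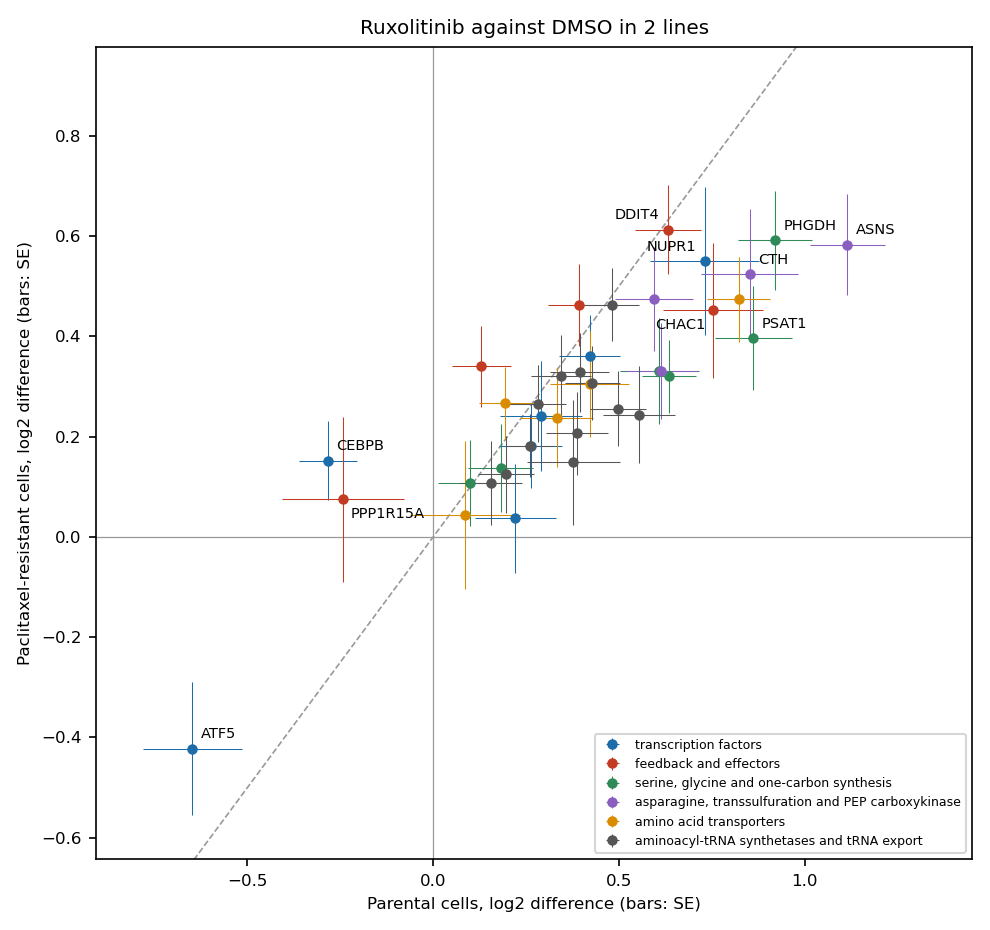
Ruxolitinib response (log2 difference from DMSO) of each of the 39 genes in parental cells (horizontal) and paclitaxel-resistant cells (vertical), coloured by role; bars are standard errors and the dashed line marks equal responses. ASNS lies at 1.11 and 0.58, and ATF5 at -0.65 and -0.42.

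Added to paclitaxel, ruxolitinib (labelled 15 nM) shifted the set in the same direction as the single agent. Parental cells with 2.5 nM paclitaxel and ruxolitinib, against the same paclitaxel dose alone, had 25 members that rose (15.1% of all genes) and 3 that fell (12.9% of all genes). ASNS was at 356 and 292 CPM with paclitaxel alone and 810 and 694 CPM with both (1.21 ± 0.10, adjusted p = 2.1e-08). PSAT1 was at 166 and 141 CPM and then 336 and 299 CPM (1.05 ± 0.10, adjusted p = 2.94e-07). CTH, which releases cysteine from cystathionine, was at 8.86 and 9.13 CPM and then 18.5 and 16.3 CPM (0.88 ± 0.13, adjusted p = 6.24e-05). All 12 tRNA genes rose here, from 0.24 (NARS) to 0.78 (IARS). The 3 that fell were ATF5 (-0.78), PPP1R15A (-0.75), which went from 34.2 and 41.8 CPM to 20.4 and 23.9 CPM, and CEBPB (-0.35). ATF4 differed by 0.19 and did not pass (adjusted p = 0.0911).

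In paclitaxel-resistant cells with 6.5 nM paclitaxel, the added ruxolitinib raised 9 members (1.16% of all genes) and lowered 0 (2.12% of all genes). DDIT4 was at 270 and 274 CPM with paclitaxel alone and 416 and 419 CPM with both (0.62 ± 0.09, adjusted p = 0.000139). ASNS was at 455 and 433 CPM against 704 and 653 CPM (0.61 ± 0.10, adjusted p = 0.000671), and PSAT1 at 215 and 212 CPM against 298 and 285 CPM (0.45 ± 0.10, adjusted p = 0.0142). PSPH (0.41), PHGDH (0.40), CBS (0.39), YARS (0.31), STC2 (0.30) and GARS (0.27) completed the 9. The median was 0.23 against 0.00 over all genes. The replicates of the groups did not overlap in any of the 39 members, of which 9 passed, against 57.1% of all genes tested. Without any 1 of the 4 libraries the count was 3 or 4 (3, 3, 3 and 4 without paclitaxel replicates 1 and 2 and combination replicates 1 and 2), and PSAT1 no longer passed without any of them (adjusted p = 0.102, 0.132, 0.167 and 0.0744). It was 28 after the GC and length correction and 31 in a fit of only these groups.

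Doxorubicin at 1 µM split the set in parental cells: DDIT3, PPP1R15A and 3 other transcription factor genes rose, while DDIT4, TRIB3, 5 of 6 serine and one-carbon enzymes and 8 of 12 tRNA genes fell. Of 39 members 11 rose (34.3% of all genes rose) and 25 fell (41.5% of all genes fell). Most genes of the table thus changed, and the members' share of rises (28.2%) was below that of all genes, while their share of falls was 64.1%. The median absolute difference was 0.89 over the members and 0.59 over all genes. The split depended in part on scaling: with median-of-ratios scaling 12 members rose and 20 fell, and 31 calls were shared.

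**Figure D4:**
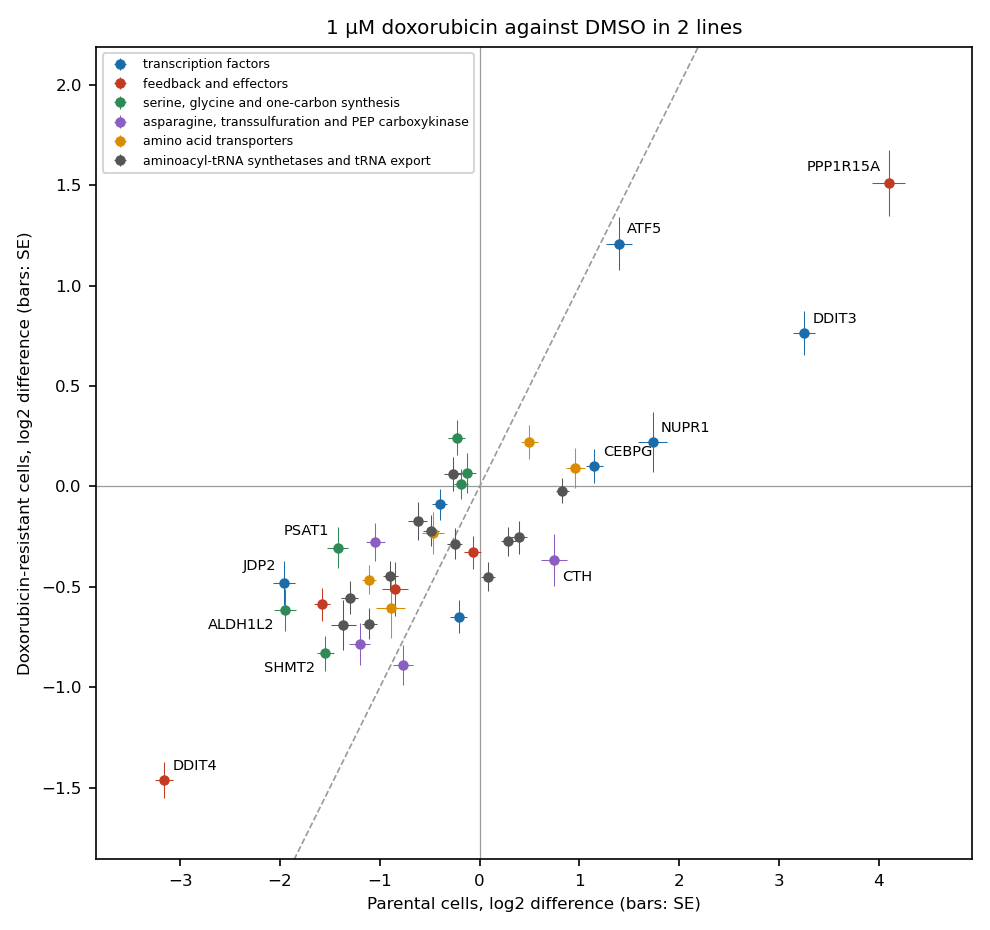
Response to 1 µM doxorubicin (log2 difference from DMSO) of the 39 genes in parental cells (horizontal) and doxorubicin-resistant cells (vertical), coloured by role; the axes have different ranges, bars are standard errors and the dashed line marks equal responses. PPP1R15A lies at 4.10 and 1.51, DDIT4 at -3.16 and -1.46, and ATF5, at 1.39 and 1.21, is close to the line.

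PPP1R15A, the eIF2α phosphatase subunit, was at 10.6 and 14.6 CPM in DMSO and 269 and 196 CPM with 1 µM doxorubicin, a mean ratio of 18.5 (4.10 ± 0.16, adjusted p = 3.9e-16). DDIT3 was at 15.9 and 17.6 CPM and then 196 and 143 CPM (3.25 ± 0.11, adjusted p = 1.88e-17). DDIT4 moved the other way, from 453 and 561 CPM to 57.8 and 53.0 CPM (-3.16 ± 0.09, adjusted p = 8.86e-19). No replicates of the groups overlapped for these genes, as for 79.3% of all genes tested. The shifts of these genes were many times the spread between libraries. ATF4 mRNA shifted little by comparison: 354 and 432 CPM in DMSO and 367 and 311 CPM with doxorubicin, with overlapping libraries (-0.21 ± 0.08, adjusted p = 0.0237).

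Of the 7 transcription factors 4 rose and 3 fell. NUPR1 was at 21.2 and 25.7 CPM in DMSO and 94.1 and 68.0 CPM with the drug (1.73 ± 0.15, adjusted p = 2.25e-10). ATF5 was at 24.5 and 35.9 CPM and then 84.3 and 75.3 CPM (1.39 ± 0.13, adjusted p = 1.53e-09). CEBPG, whose promoter core is shown above, was at 58.0 and 49.2 CPM and then 116 and 124 CPM (1.15 ± 0.08, adjusted p = 1.66e-11). JDP2, an AP-1 family repressor with the same core, went down instead, from 30.7 and 37.2 CPM to 8.38 and 7.54 CPM (-1.96 ± 0.11, adjusted p = 1.24e-13). CEBPB fell by 0.40. Among the effectors TRIB3 was at 175 and 204 CPM and then 66.0 and 59.5 CPM (-1.58 ± 0.08, adjusted p = 3.08e-14), CHAC1 fell by 0.85 and STC2 differed by -0.07.

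None of the serine, glycine and one-carbon genes rose and 5 of 6 fell. ALDH1L2 was at 101 and 90.3 CPM in DMSO and 20.9 and 27.6 CPM with doxorubicin (-1.95 ± 0.11, adjusted p = 7.38e-14). SHMT2, which splits serine into glycine and a one-carbon unit in mitochondria, was at 314 and 373 CPM and then 126 and 107 CPM (-1.55 ± 0.09, adjusted p = 1.66e-13). PSAT1 was at 227 and 194 CPM and then 69.3 and 87.2 CPM (-1.42 ± 0.10, adjusted p = 1.45e-11). PHGDH, the enzyme before it, differed by -0.13 with overlapping libraries and did not pass. CBS (-1.20 ± 0.10, adjusted p = 3.05e-10) and PCK2 (-1.05 ± 0.10, adjusted p = 7.31e-10) fell, as did ASNS by 0.77, but CTH rose by 0.74.

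The transporters and tRNA genes were split too. SLC3A2 (0.96) and SLC1A4 (0.50) rose, while SLC7A5, the partner chain of SLC3A2, fell by 0.47 and the cystine carrier SLC7A11 by 0.89. SLC7A1 was at 188 and 206 CPM in DMSO and 87.7 and 93.7 CPM with doxorubicin (-1.11 ± 0.07, adjusted p = 1.78e-12). Of the 12 tRNA genes 8 fell and 3 rose. XPOT, which carries tRNA out of the nucleus, was at 603 and 461 CPM and then 182 and 229 CPM (-1.37 ± 0.12, adjusted p = 7.22e-10). EPRS, the joint synthetase for glutamate and proline, went from 617 and 535 CPM to 215 and 251 CPM (-1.30 ± 0.08, adjusted p = 1.35e-12), and MARS from 220 and 252 CPM to 115 and 103 CPM (-1.10 ± 0.08, adjusted p = 6.76e-12). WARS (0.83), SARS (0.40) and CARS (0.29) rose, and YARS differed by 0.08. Summed immune, endothelial and stromal markers were 33.2 to 38 CPM in this group and 24.9 to 27.1 CPM in DMSO; their part in these differences was not tested.

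At 65 nM doxorubicin the same cells showed small and mostly downward shifts. Only ATF5 rose (0.55; 5.21% of all genes rose) and 18 members fell (5.94% of all genes fell), with a median of -0.25 against -0.01 over all genes. ASNS was at 413 and 361 CPM in DMSO and 242 and 219 CPM with 65 nM (-0.74 ± 0.10, adjusted p = 5.36e-05). SLC7A11 was at 458 and 368 CPM and then 292 and 214 CPM (-0.72 ± 0.15, adjusted p = 0.00281). DDIT4 was at 453 and 561 CPM and then 317 and 305 CPM (-0.69 ± 0.09, adjusted p = 3.18e-05). The groups did not overlap for these 3 genes, as for 46.1% of all genes tested. PPP1R15A, at 15.8 and 18.2 CPM against 10.6 and 14.6 CPM, did not pass (0.42, adjusted p = 0.104), and DDIT3 differed by 0.01. The count of 19 was 10 without DMSO replicate 1, 9 without 65 nM replicate 1 and 3 without 65 nM replicate 2, against 30 after the GC and length correction and 2 in a fit of only these groups. SLC7A11 no longer passed without DMSO replicate 1 (-0.56, adjusted p = 0.0704), without 65 nM replicate 2 (-0.49, adjusted p = 0.148) or in the fit of only these groups (adjusted p = 0.0706).

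Between the 65 nM and 1 µM doses, which share no libraries, 13 members were higher at 1 µM (33.8% of all genes) and 18 lower (40.1% of all genes). PPP1R15A was 3.68 ± 0.16 higher at the high dose (adjusted p = 3.71e-15) and DDIT3 3.23 ± 0.11 (adjusted p = 3.35e-17). NUPR1 (1.67 ± 0.15, adjusted p = 5.05e-10) and CEBPG (1.56 ± 0.08, adjusted p = 8.85e-14) were higher as well. CEBPG had fallen by 0.42 at 65 nM and risen by 1.15 at 1 µM, so its direction reversed with dose. CTH (0.98), SLC3A2 (0.99), WARS (0.89), ATF5 (0.85) and SLC1A4 (0.83) were also higher at 1 µM. Lower at 1 µM were DDIT4 (-2.47 ± 0.09, adjusted p = 8.5e-17), JDP2 (-1.69 ± 0.11, adjusted p = 2.11e-12), ALDH1L2 (-1.49 ± 0.11, adjusted p = 1.04e-11), TRIB3 (-1.26 ± 0.08, adjusted p = 2.05e-12), SHMT2 (-1.22 ± 0.09, adjusted p = 1.29e-11) and EPRS (-1.05 ± 0.08, adjusted p = 7.93e-11). ASNS differed by -0.03 between the doses and did not pass; it was already lower at 65 nM.

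In doxorubicin-resistant cells 1 µM doxorubicin moved the set by less, and mainly down. In total 5 members rose (19.1% of all genes) and 24 fell (19.9% of all genes), with a median of -0.29 against 0.00 over all genes. The smaller shift was not particular to the set. The median absolute difference was 0.37 over the members and 0.22 over all genes, against 0.89 and 0.59 in parental cells. PPP1R15A was at 12.6 and 10.9 CPM in DMSO and 33.3 and 37.2 CPM with the drug (1.51 ± 0.16, adjusted p = 1.83e-07). DDIT4 was at 386 and 366 CPM and then 134 and 137 CPM (-1.46 ± 0.09, adjusted p = 3.09e-11). ATF5 was at 22.9 and 21.7 CPM and then 52.6 and 53.0 CPM (1.21 ± 0.13, adjusted p = 2.04e-07). These groups did not overlap for 37 of 39 members, against 79.7% of all genes tested. DDIT3 (0.76), SLC1A4 (0.22) and MTHFD2 (0.24) were the other members that rose. ATF4 fell by 0.65, from 305 and 302 CPM to 194 and 193 CPM, its lowest level of any group. All 4 enzymes of asparagine, cysteine and phosphoenolpyruvate synthesis fell, ASNS the most (-0.89), with 9 of 12 tRNA genes, 4 of 5 effectors and 3 of 6 serine and one-carbon enzymes, among them SHMT2 (-0.83).

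At 350 nM doxorubicin, these cells had 0 members that rose (2.39% of all genes) and 6 that fell (1.43% of all genes). DDIT4 was at 386 and 366 CPM in DMSO and 275 and 237 CPM at 350 nM (-0.55 ± 0.09, adjusted p = 0.000625). SHMT2 was at 279 and 272 CPM and then 231 and 197 CPM (-0.37 ± 0.09, adjusted p = 0.0167). TRIB3 was at 197 and 184 CPM and then 158 and 140 CPM (-0.36 ± 0.08, adjusted p = 0.0129). The libraries of the groups did not overlap for these genes, as for 45.5% of all genes tested. SLC7A1 (-0.33), ATF4 (-0.29) and YARS (-0.27) were the other members that fell. The count was 1 without DMSO replicate 1, 2 without DMSO replicate 2 and 1 without 350 nM replicate 2; it was 16 after the GC and length correction and 2 in a fit of only these groups. SHMT2 and TRIB3 no longer passed without any of these 3 libraries (adjusted p of 0.0957 to 0.275 for SHMT2 and 0.0516 to 0.203 for TRIB3) or in the fit of only these groups (0.0755 and 0.0759).

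The responses to 1 µM doxorubicin were tested against each other as a difference of differences, doxorubicin-resistant minus parental. It was higher in doxorubicin-resistant cells for 18 members (33.2% of all genes) and lower for 11 (25.1% of all genes). With median-of-ratios scaling it was higher for 15 and lower for 13. The largest were in PPP1R15A (-2.59 ± 0.23, adjusted p = 3.32e-09) and DDIT3 (-2.48 ± 0.16, adjusted p = 1.11e-11), which rose in both lines but less in the resistant one. DDIT4 (1.70 ± 0.13, adjusted p = 1.74e-10), JDP2 (1.48 ± 0.15, adjusted p = 3.32e-08), ALDH1L2 (1.34 ± 0.15, adjusted p = 9.3e-08) and PSAT1 (1.12 ± 0.15, adjusted p = 8.9e-07) fell in both, and by less in the resistant line. NUPR1 (-1.51 ± 0.21, adjusted p = 1.83e-06) and CEBPG (-1.05 ± 0.12, adjusted p = 1.16e-07) rose in parental cells and did not pass in the resistant line. CTH rose by 0.74 in parental cells and fell by 0.37 in the resistant line (difference -1.11 ± 0.18, adjusted p = 1.86e-05). ATF4 fell by more in the resistant line (-0.44 ± 0.12, adjusted p = 0.00259). The ATF5 response differed by -0.18 ± 0.19 and the ASNS response by -0.12 ± 0.14, and neither passed.

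In parental cells 10 nM paclitaxel raised PPP1R15A, DDIT3 and NUPR1 the most and lowered all 6 serine and one-carbon enzymes. In total 7 members rose (17.9%, against 20.1% of all genes) and 18 fell (46.2%, against 28.1% of all genes), so the share of rises was no larger than the background. PPP1R15A was at 10.6 and 14.6 CPM in DMSO and 96.0 and 67.6 CPM at 10 nM (2.60 ± 0.16, adjusted p = 2.55e-11). DDIT3 was at 15.9 and 17.6 CPM and then 44.0 and 41.3 CPM (1.30 ± 0.11, adjusted p = 3.04e-09). NUPR1 was at 21.2 and 25.7 CPM and then 61.2 and 47.9 CPM (1.18 ± 0.15, adjusted p = 9.38e-07). In these 3 genes both paclitaxel libraries lay above both DMSO libraries. In either direction, 63.3% of all genes tested did not overlap between these groups. ATF4 was within the spread of its replicates (0.06, adjusted p = 0.545). CHAC1 (0.66), SLC3A2 (0.47), STC2 (0.30) and CEBPG (0.25) were the other members that rose.

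All 6 serine, glycine and one-carbon enzymes fell at 10 nM. ALDH1L2 was at 101 and 90.3 CPM in DMSO and 46.1 and 44.6 CPM with the drug (-1.06 ± 0.11, adjusted p = 3.66e-08). PHGDH (-0.85), SHMT2 (-0.67), PSAT1 (-0.57), MTHFD2 (-0.49) and PSPH (-0.26) followed. CBS fell by 0.68, JDP2 by 0.77, DDIT4 by 0.55 and 7 of 12 tRNA genes, IARS the most (-0.63), while ASNS differed by -0.08 and did not pass. The summed immune, endothelial and stromal markers were 40.4 to 44.8 CPM here and 24.9 to 27.1 CPM in DMSO; their part in these differences was not tested.

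At 2.5 nM paclitaxel 7 members rose (9.71% of all genes) and 7 fell (17.1% of all genes). PPP1R15A was at 34.2 and 41.8 CPM (1.53 ± 0.16 above DMSO, adjusted p = 2.22e-06), NUPR1 at 40.5 and 43.3 CPM (0.82 ± 0.15, adjusted p = 0.000785) and CHAC1 at 19.5 and 20.1 CPM against 12 and 14.3 CPM in DMSO (0.56 ± 0.13, adjusted p = 0.00596). DDIT3 rose by 0.55, and ALDH1L2 (-0.53) and PSAT1 (-0.45) were among those that fell. The count of 14 was 5 without DMSO replicate 1 and 4 without 2.5 nM replicate 2, and 7 in a fit of only these groups. CHAC1 no longer passed without either of these libraries (adjusted p = 0.131 and 0.072). After the GC and length correction 7 rose and 16 fell.

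In paclitaxel-resistant cells 10 nM paclitaxel raised 4 members (6.62% of all genes) and lowered 7 (6.99% of all genes). PPP1R15A was at 8.01 and 7.28 CPM in DMSO and 22.4 and 26.4 CPM at 10 nM (1.55 ± 0.16, adjusted p = 8.61e-07). DDIT3 was at 16.0 and 15.0 CPM and then 26.3 and 27.9 CPM (0.77 ± 0.11, adjusted p = 4.73e-05). JDP2 was at 27.7 and 25.6 CPM and then 17.1 and 19.6 CPM (-0.51 ± 0.11, adjusted p = 0.00262; adjusted p = 0.051 without 10 nM replicate 1). The groups did not overlap for these genes, as for 61.9% of all genes tested. SLC3A2 (0.41) and SLC1A4 (0.26) were the other members that rose, and 5 of the 7 that fell were serine and one-carbon enzymes, ALDH1L2 the most (-0.51). DDIT4 was the last of the 7 (-0.43). The count of 11 was 6 and 5 without DMSO replicates 1 and 2, and 6 and 7 without 10 nM replicates 1 and 2; after the GC and length correction 5 rose and 17 fell.

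At 6.5 nM no member passed in these cells (0 of 39 in limma; 0.0706% of all genes rose and 0.0235% fell), while 4 had an unadjusted p under 0.05. PPP1R15A, at 13.3 and 14.1 CPM against 8.01 and 7.28 CPM in DMSO, had the largest difference (0.77 ± 0.16, adjusted p = 0.0701). SLC7A11 differed by 0.32 (adjusted p = 0.799). A voom fit also called 0, log2(CPM + 0.25) called 1, the GC and length correction called 3 and a fit of only these groups called 8.

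The 10 nM paclitaxel responses of the lines differed, paclitaxel-resistant minus parental, in 4 members that were higher (6.87% of all genes) and 3 that were lower (3.88% of all genes). The response of PPP1R15A was lower by a log2 value of -1.05 ± 0.23 (adjusted p = 0.0053) and that of NUPR1 by -0.76 ± 0.21 (adjusted p = 0.0208). DDIT3 was the other gene with a lower response (-0.53). ALDH1L2 fell by less in the resistant line (0.55 ± 0.15, adjusted p = 0.0198), as did PHGDH (0.43). CBS (0.49) and IARS (0.43) fell in parental cells and did not pass in the resistant line. The count of 7 was 4 without 10 nM parental replicate 1 or 2, 1 without paclitaxel-resistant DMSO replicate 1 or 2, and 2 without 10 nM paclitaxel-resistant replicate 1; it was 1 in a fit of only these groups and 15 after the GC and length correction. NUPR1 and ALDH1L2 no longer passed without several single libraries, parental DMSO replicate 1 among them (adjusted p = 0.0731 and 0.0659), and with median-of-ratios scaling 2 were higher and 3 lower.

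Under DMSO, more members were lower than higher in each resistant line when set against parental cells. In doxorubicin-resistant cells 2 members were higher (12.3% of all genes) and 15 lower (15.2% of all genes), with a median of -0.16 against -0.01 over all genes. STC2 was at 216 and 249 CPM in parental cells and 136 and 119 CPM in the resistant line (-0.86 ± 0.08, adjusted p = 1.5e-08). SLC1A4, the exchanger of alanine, serine and cysteine, was at 15.6 and 16.8 CPM and 26.6 and 27.1 CPM (0.70 ± 0.09, adjusted p = 9.46e-07). PCK2 was at 51.9 and 63.7 CPM and 37.6 and 36.7 CPM (-0.62 ± 0.10, adjusted p = 2.52e-05). The libraries of the lines did not overlap for these genes, as for 56.5% of all genes tested. ASNS was the other member that was higher (0.34), and ATF4 (-0.36), ATF5 (-0.40), CEBPB (-0.42) and SLC7A5 (-0.49) were among those lower. Without parental replicate 2 or doxorubicin-resistant replicate 2 the count of 17 was 10, and it was 6 in a fit of only these groups.

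In paclitaxel-resistant cells 4 members were higher (16.3% of all genes) and 13 lower (16.3% of all genes) than in parental cells. SLC7A11 was at 458 and 368 CPM in parental cells and 247 and 247 CPM in the resistant line (-0.73 ± 0.15, adjusted p = 0.00047). CTH was at 9.71 and 8.15 CPM and 5.10 and 4.93 CPM (-0.72 ± 0.13, adjusted p = 0.000133), and STC2 at 216 and 249 CPM and 142 and 144 CPM (-0.69 ± 0.08, adjusted p = 4.12e-07). No libraries of the lines overlapped for these genes, as for 61.7% of all genes tested. DDIT4 (-0.68), PPP1R15A (-0.64) and SLC7A5 (-0.51) were lower too. TRIB3 (0.47), ASNS (0.28), IARS (0.27) and AARS (0.21) were the 4 that were higher, and ATF4 differed by -0.04 (adjusted p = 0.726). Without parental replicate 2 or either paclitaxel-resistant library the count of 17 was 11 each time, and it was 10 in a fit of only these groups. Both lines were set against the same parental libraries, so these comparisons are not independent. Summed immune, endothelial and stromal markers were 17.9 to 18.6 CPM in paclitaxel-resistant, 31.2 to 33.7 CPM in doxorubicin-resistant and 24.9 to 27.1 CPM in parental cells, and the 6 epithelial markers 5188 to 5315, 5765 to 5801 and 5737 to 6935 CPM; their part in these differences was not tested.

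Set against each other, the resistant lines differed in 16 members, 7 higher in doxorubicin-resistant cells (15.6% of all genes) and 9 lower (18.4% of all genes). The members' shares, 17.9% and 23.1%, were near those of all genes. SLC7A11 was at 377 and 394 CPM in doxorubicin-resistant cells and 247 and 247 CPM in paclitaxel-resistant cells (0.64 ± 0.15, adjusted p = 0.00159). PCK2 was at 37.6 and 36.7 CPM and 58.6 and 57.7 CPM (-0.63 ± 0.10, adjusted p = 1.34e-05). PPP1R15A was at 12.6 and 10.9 CPM and 8.01 and 7.28 CPM (0.56 ± 0.16, adjusted p = 0.0104), and lost its call without doxorubicin-resistant replicate 1 (adjusted p = 0.106) or paclitaxel-resistant replicate 2 (adjusted p = 0.0843). The lines did not overlap for these genes, as for 77.0% of all genes tested. SLC1A4 (0.54) was higher and AARS (-0.53), TRIB3 (-0.46) and ATF4 (-0.32) lower in doxorubicin-resistant cells. The count of 16 was 10 without doxorubicin-resistant replicate 2 and 9 without either paclitaxel-resistant library, and 26 in a fit of only these groups.

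**Figure D5:**
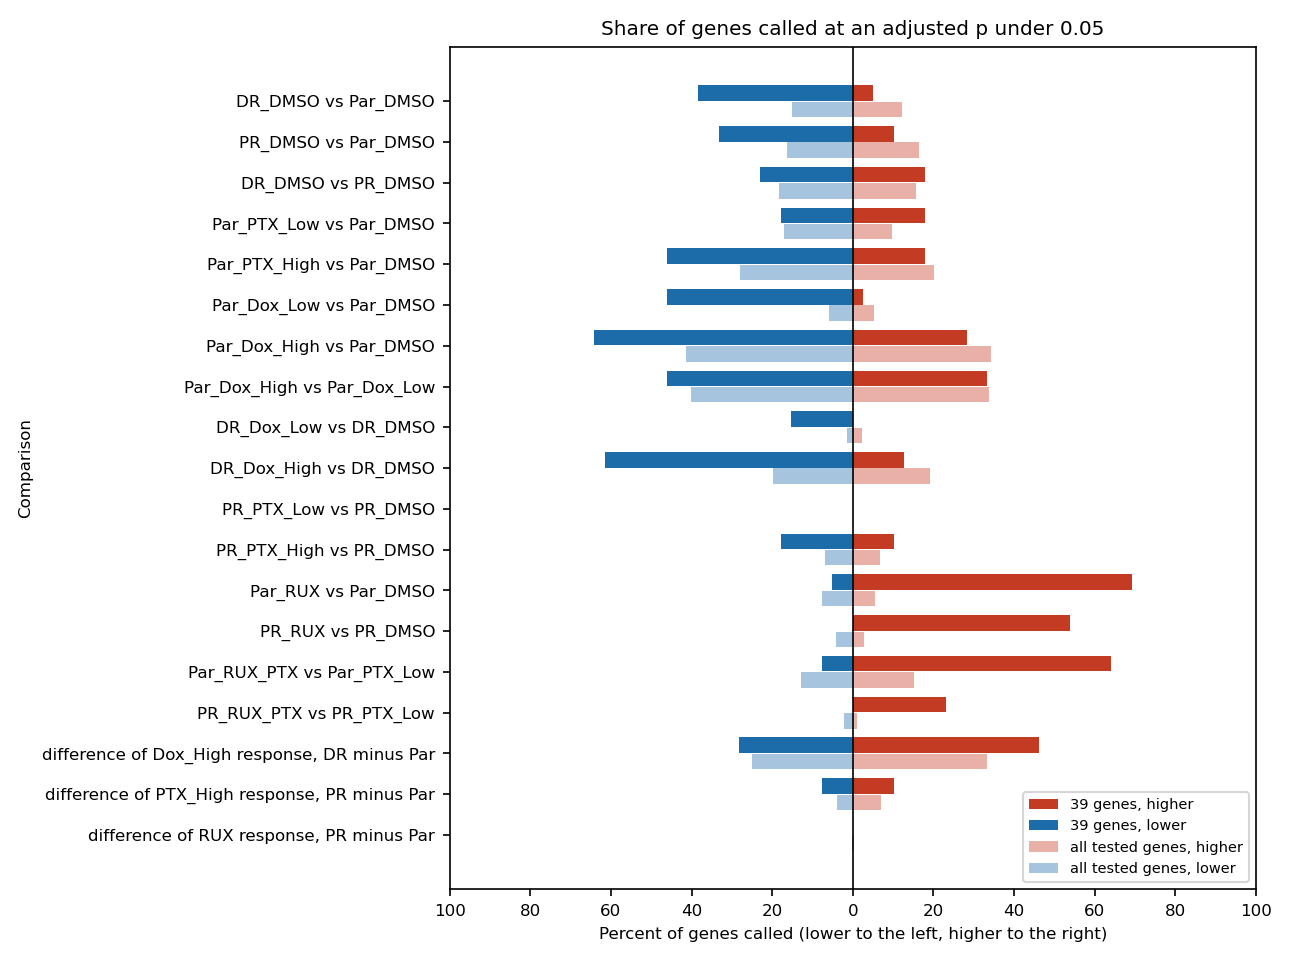
Percent of the 39 genes (dark bars) and of all 12743 tested genes (light bars) with an adjusted p under 0.05, higher to the right and lower to the left, in 19 comparisons. The 39 genes stand at 69.2% higher with ruxolitinib in parental cells, where 5.51% of all genes rose, and at 46.2% lower with 65 nM doxorubicin, where 5.94% of all genes fell.

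Other genes of the pathway, from lists separate from the 39, were read beside the ruxolitinib and doxorubicin results. Over all genes 5.51% rose and 7.71% fell with ruxolitinib in parental cells. With ruxolitinib in parental cells 1 of 18 genes for eIF2α kinases, eIF2, eIF2B and the eIF2α phosphatase rose and 0 fell, with a median of 0.00; the amino acid sensing kinase EIF2AK4 differed by 0.01 (adjusted p = 0.977) and the endoplasmic reticulum kinase EIF2AK3 by 0.23 (adjusted p = 0.112). Of 9 cytosolic aminoacyl-tRNA synthetase genes outside the set 0 rose and 0 fell (median -0.09), where 10 of the 12 tRNA genes within it rose. Of 16 mitochondrial synthetase genes 0 rose and 1 fell. Of 25 other reported ATF4 targets 8 rose and 1 fell (median 0.12), of 18 other amino acid transporters 3 rose and 2 fell, and of 10 NRF2 targets, which respond to oxidants, 1 rose and 2 fell. The amino acid exchanger SLC7A8 rose by 1.14 ± 0.14 (adjusted p = 3.87e-06), from 11.7 ± 2.12 to 26.7 ± 0.639 CPM (SD, 2 libraries). HMOX1, the haem oxygenase gene among the NRF2 targets, fell by 1.32, from 175 ± 32.8 to 68.5 ± 1.20 CPM (adjusted p = 1.55e-08).

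With 1 µM doxorubicin in parental cells 34.3% of all genes rose and 41.5% fell, and the counts below stand beside these shares. Of the 25 other ATF4 targets 7 rose and 15 fell. The median absolute difference was 0.44 over the 18 genes of the eIF2 machinery and 0.59 over all genes. ATF3, a stress-induced transcription factor, rose by 4.23 ± 0.12, from 17.4 ± 3.42 to 344 ± 46.6 CPM (adjusted p = 8.86e-19), and the growth arrest gene GADD45A by 3.26 ± 0.10 (adjusted p = 5.3e-18). VLDLR (-2.34), the proline synthesis genes ALDH18A1 (-2.17) and PYCR1 (-1.64), and GPT2 (-1.69), which links alanine to pyruvate, fell. MTHFD1L (-1.62) and NARS2 (-1.35) fell too, while KLHL24 (1.74), TXNIP (1.46), CCNG2 (1.27) and SESN2 (1.12) rose. Of the 18 genes of the eIF2 machinery 4 rose and 8 fell: EIF2AK4 fell by 1.01, the eIF2B subunit gene EIF2B3 by 1.48 and IMPACT, an inhibitor of EIF2AK4 activation, by 1.5, while EIF2B1 rose by 1.00. Of the 9 remaining cytosolic synthetase genes 6 fell, VARS the most (-1.29), and 1 rose. Of 16 mitochondrial synthetase genes 12 fell and 1 rose, with IARS2 at -1.76, TARS2 at -1.63, AARS2 at -1.54 and FARS2 at -1.11. Of 18 other transporters 12 fell and 3 rose, with SLC1A1 at -2.03, SLC6A6 at -1.73 and SLC7A2 at -1.69. Of 10 NRF2 targets 5 fell and 2 rose, with HMOX1 at -1.38 and GCLC at -1.28. In doxorubicin-resistant cells ATF3 rose by 1.54 and GADD45A by 1.23 at this dose. ATF3 also rose with 10 nM paclitaxel, by 2.68 in parental and 1.85 in paclitaxel-resistant cells, and at 6.5 nM in the latter it rose by 0.60 (adjusted p = 0.0493), where none of the 39 passed.

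Members with and without the TGATGNAA core in their windows were called in similar shares with ruxolitinib. In parental cells 10 of 14 members with the core and 13 of 19 without it rose (5.51% of all genes rose). In paclitaxel-resistant cells 8 of 14 and 10 of 19 did (2.86% of all genes rose). With 1 µM doxorubicin in parental cells, 4 of 14 members with the core rose, CEBPG among them, and 10 fell, JDP2 and SLC7A1 among them. Of the 19 without it 6 rose and 11 fell (34.3% of all genes rose and 41.5% fell). These counts are descriptions and the difference between the shares was not tested.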

How the data were processed

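Gene-level RNA-seq values of 30 libraries were used as deposited. Per the submitters' processing notes, the authors aligned reads with STAR 2.5.1b to GRCh37/hg19 and used edgeR. The deposited values are log2 of CPM + 1 after trimmed-mean normalization, and they return whole reads for 100% of values up to 1000 reads (tolerance 0.01). SLC7A5, PSPH and ATF4 have pseudogenes of close sequence; how shared reads and strand were handled is not stated in the labels or notes used.

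Genes with at least 1 CPM in at least 2 libraries (12743) were fitted with limma 3.58.1 in R 4.3.3 as 15 group means with 1 spread per gene over all groups (15 residual degrees of freedom, trend and robust empirical Bayes, two-sided tests). P-values were adjusted by Benjamini-Hochberg over all genes within each of 19 comparisons, 16 of a pair of groups and 3 of responses, at 0.05. Members called with an absolute log2 difference of at least 1, or else the 3 called with the largest difference, carry full statistics; others stand as examples, chosen with their values known. Related genes are named by the same size of 1, or as eIF2α kinases. Members and lists were chosen with earlier results of these data known. Alternatives were recovered reads with voom, median-of-ratios scaling, other pseudocounts and filters, a fit of only the groups compared, GC and length correction, a replicate block, and leaving out each library. Scripts were tested on simulated data. Tables and plots used Python 3.11.15, pandas 2.3.3 and matplotlib 3.10.9.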

Additional observations from a re-analysis of the deposited data

Results flagged for a closer look

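Responses that differed between the lines are listed here because the difference itself was tested and passed an adjusted p under 0.05 in limma. For 1 µM doxorubicin, 29 of the 39 genes differed between doxorubicin-resistant and parental cells, 18 higher (33.2% of all genes) and 11 lower (25.1% of all genes). Smaller log2 responses of rising genes in the resistant line were those of PPP1R15A (-2.59), DDIT3 (-2.48), NUPR1 (-1.51), CTH (-1.11) and CEBPG (-1.05), of which CTH went from a rise to a fall. Weaker falls in the resistant line were those of DDIT4 (1.70), JDP2 (1.48), ALDH1L2 (1.34) and PSAT1 (1.12). For 10 nM paclitaxel, 7 of the 39 differed between paclitaxel-resistant and parental cells, 4 higher (6.87% of all genes) and 3 lower (3.88% of all genes), with PPP1R15A (-1.05), NUPR1 (-0.76) and ALDH1L2 (0.55) the furthest apart. The DMSO levels of PPP1R15A already differed between paclitaxel-resistant cells (8.01 and 7.28 CPM) and parental cells (10.6 and 14.6 CPM), and the part of the starting level in the difference of responses was not tested.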

How the results depend on the processing

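The 79 values of named members kept their direction under every alternative run; 27 of 364 left-out-library values and 5 of 79 in fits of only the groups compared no longer passed. Counts of members called moved as follows, and the cause was not tested. In fits of only the groups compared the count was 6 for doxorubicin-resistant against parental cells, 10 for paclitaxel-resistant against parental cells and 26 for the resistant lines against each other. In such fits it was 7 and 16 for 2.5 and 10 nM paclitaxel and 2 for 65 nM doxorubicin in parental cells, 2 for 350 nM doxorubicin in doxorubicin-resistant cells and 8 for 6.5 nM paclitaxel in paclitaxel-resistant cells. For ruxolitinib it was 16 in parental and 34 in paclitaxel-resistant cells and 31 for the combination in the latter, and it was 1 for the difference of 10 nM paclitaxel responses. After GC and length correction, alone or with the replicate block, it was 23 for 2.5 nM paclitaxel and 30 for 65 nM doxorubicin in parental cells and 16 for 350 nM doxorubicin in doxorubicin-resistant cells. In paclitaxel-resistant cells it was then 3 and 22 for 6.5 and 10 nM paclitaxel, 33 for ruxolitinib and 28 for the combination, with 15 and 5 for the differences of paclitaxel and ruxolitinib responses. For 350 nM doxorubicin this gave 2 higher and 14 lower. With log2(CPM + 0.25) the count for 6.5 nM paclitaxel was 1. Scaling moved the median of all genes by at most 0.083.

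Leaving out 1 library gave 10 to 17 calls for doxorubicin-resistant against parental cells, 11 to 20 for paclitaxel-resistant against parental cells and 9 to 11 between the resistant lines. In parental cells the ranges were 4 to 21 and 21 to 25 for 2.5 and 10 nM paclitaxel, 3 to 14 and 32 to 36 for 65 nM and 1 µM doxorubicin, 30 to 34 between these doses, 21 to 26 for ruxolitinib and 19 to 27 for the combination. In doxorubicin-resistant cells they were 1 to 4 and 21 to 23 for 350 nM and 1 µM doxorubicin. In paclitaxel-resistant cells they were 0 to 0 and 5 to 7 for 6.5 and 10 nM paclitaxel, 7 to 9 for ruxolitinib and 3 to 4 for the combination. The differences of responses gave 26 to 29 for doxorubicin, 1 to 7 for paclitaxel and 0 to 1 for ruxolitinib.

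Replicate numbers were not treated as pairs in the main fit. Deviations of same-numbered libraries correlated from -0.689 to 0.650 over 105 pairs of groups, over 0.1 in 30. In several groups these deviations followed transcript GC content (Spearman 0.872 in parental DMSO and -0.788 in parental 1 µM doxorubicin). The correlations therefore cannot show whether the samples were paired. With the replicate block 28 members were called for ruxolitinib in parental cells, 20 in paclitaxel-resistant cells and 36 for 1 µM doxorubicin in parental cells.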

Other observations

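Related genes outside the 39 showed patterns by line and drug that the main comparisons did not describe. GDF15, a secreted stress cytokine and reported ATF4 and CHOP target, was lower in paclitaxel-resistant than in parental cells under DMSO (-1.53 ± 0.09, adjusted p = 9.31e-12) and doxorubicin-resistant cells exceeded paclitaxel-resistant ones (2.18 ± 0.09, adjusted p = 1.09e-14). It rose with 10 nM paclitaxel in parental cells (1.56 ± 0.09, adjusted p = 1.27e-11) and in paclitaxel-resistant cells (1.31 ± 0.09, adjusted p = 1.62e-09). HMOX1 also rose with 10 nM paclitaxel, by 2.27 ± 0.11 in parental cells (adjusted p = 5.47e-13) and by 2.80 ± 0.11 in paclitaxel-resistant cells (adjusted p = 6.22e-14), and it fell with ruxolitinib in parental cells. Whether these responses differ between the lines is not described here.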
